A study of Mus musculus with 4 samples.

Results

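Tissue-resident TFH cells are follicular helper-like CD4+ T cells that persist in a tissue outside the germinal center. The cells described here are those that the authors' deposited cluster names call tissue-resident TFH and that carry a TGFβR-KO or TGFβR-WT cell name, 979 of the 5080 cells in the table. Of these, 519 were TGFβR-KO and 460 were TGFβR-WT. YFP+CD4+ T cells had been sorted from small intestines of mice aged 7 to 8 months and run through droplet-based 3′ scRNA-seq. YFP stays on in any cell that once expressed *Il17a*. All mice carried the *Il17a* Cre (Il-17a-CRE). TGFβR-KO mice also carried floxed alleles of *Tgfbr2*, and TGFβR-WT mice carried neither these nor the active receptor. A cell thus loses *Tgfbr2* only once it has expressed *Il17a*. There was 1 TGFβR-KO sample and there were 2 TGFβR-WT samples, each a pool of mice. The remaining sample of the series, TGFβR-CA, carries a constitutively active *Tgfbr1* behind a floxed stop cassette, and its 556 tissue-resident TFH cells are used only as values set beside the others.

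Names of TGFβR-WT cells end in 1 of 2 suffixes, and the 460 cells fall into 327 with the first (the larger set) and 133 with the second (the smaller set). Nothing in the table ties a suffix to a sample, and the methods place TGFβR-KO in a sequencing batch with only 1 of the TGFβR-WT samples. No label thus says which set shared that batch, and whether the values tell it was not tested. TGFβR-CA was in the other batch, so it differs from TGFβR-KO in batch as well as in genotype. Both sets are shown separately. The level of a gene is its corrected UMI sum in a set per 10000 corrected UMIs of all genes there. Summed corrected UMIs were 1928331 in TGFβR-KO, 1122405 in the larger set and 534829 in the smaller set, and the original depth of a cell is not known from them. With 1 TGFβR-KO pool no test between genotypes was possible, and no p-value is given. A gene was instead called by size, when its TGFβR-KO level differed at least 1.5 times, in the same direction, from that of each TGFβR-WT set, among the 2605 genes with at least 200 corrected UMIs over the 979 cells. Shares of cells come with exact Clopper-Pearson 95% intervals for counting error alone, without that between mice.

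TGFβ binds a receptor of TGFβR1 and TGFβR2, which phosphorylates SMAD2 and SMAD3, and these enter the nucleus with SMAD4. The pathway is known to switch on its own inhibitors, among them *Smad7*, *Ski*, *Skil*, *Smurf2*, *Pmepa1* and *Ldlrad4*. TFH cells are known for the receptors CXCR5, PD-1 and ICOS, for the transcription factors BCL6, MAF and TOX2, and for IL-21. In mucosal tissue TGFβ is also known to support residency, and KLF2 to favor exit from tissue and to oppose the TFH state.

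The cluster name was set against the markers named for it and against TFH genes. *Rflnb* was 4.96 times as high in tissue-resident TFH cells as in the other cells of TGFβR-KO, 4.71 times in the larger set and 4.09 times in the smaller set. *Gpr183*, a receptor for oxysterols that positions lymphocytes, gave ratios of 2.30, 2.77 and 1.13 in the same order. *Il7r* gave 0.730, 1.43 and 2.46, and *Itga4* gave 0.883, 1.05 and 1.71. *Rflnb* thus marked the cells in every set. *Gpr183* was above the other cells pooled in every set, weakly in the smaller set, but did not single out this cluster. Cells that the authors named pre-tumorigenic held *Gpr183* at 6.03, 8.67 and 6.29 in the same order. Tissue-resident TFH cells held it at 7.05, 8.52 and 4.52. *Il7r* and *Itga4* were not higher in tissue-resident TFH cells than elsewhere in TGFβR-KO. For the TFH genes the ratios were 0.492, 0.648 and 0.873 for *Icos*, 0.391, 0.370 and 0.598 for *Tnfrsf4* (OX40) and 0.991, 0.547 and 0.778 for *Pdcd1*. *Bcl6* gave 1.47, 0.656 and 0.928, and *Cxcr5* gave 2.59, 0.932 and 1.10. These TFH genes were mostly not higher than in the other cells pooled, which include the germinal center TFH cells. The exceptions were *Bcl6* and *Cxcr5* in TGFβR-KO and, by little, *Cxcr5* in the smaller set. Set by set, *Cxcr5* was at 0.617, 0.909 and 1.25, against 0.0245, 0.0933 and 0.0814 in activated cells. It was at 1.64, 2.49 and 2.90 in germinal center TFH cells. In every set *Cxcr5*, *Bcl6* and *Pdcd1* lay above activated and migratory cells and below germinal center TFH cells. *Icos* lay below each of these clusters in every set. For these TFH genes the remaining clusters are left out here. The name is used here as the authors gave it. All of these genes could themselves have formed the cluster. Within the cluster, *Rflnb* was at 5.05 in TGFβR-KO, 5.03 in the larger set and 5.42 in the smaller set, and all 3 were close. The T cell receptor constant gene *Trac* was at 17.6, 21.7 and 20.9, and *Cd4* was at 3.88, 4.73 and 5.03.

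The libraries stood apart in ways that touch every ratio below. Genes of ribosomal proteins held 33.7% of the corrected UMIs in TGFβR-KO, 27.7% in the larger set and 24.6% in the smaller set, and the median number of genes per cell was 1328, 1371 and 1656. Over the tested genes the median log2 ratio of TGFβR-KO was -0.13 to the larger set and -0.20 to the smaller set. The TGFβR-WT sets differed at least 1.5 times from each other in 485 genes (18.6%), of which 200 (7.68%) were higher and 285 (10.9%) lower in the larger set. *Xist*, transcribed from the inactive X chromosome of females, was at 0 in TGFβR-KO and in the larger set and at 10.2 in the smaller set. Other cell types left little RNA. Summed levels of 18 epithelial genes were between 0.0891 and 0.280 in the 3 sets, and those of 10 genes of CD8, γδ, NK and innate lymphoid cells were between 0.410 and 0.731, with *Cd8a*, *Igkc*, *Krt19* and *Tyrobp* at 0 in all 3. Of 14 B and plasma cell genes the summed level was 2.53, 2.35 and 1.36, and of 8 myeloid genes 1.74, 1.66 and 2.04, mostly from *Ighm* and *Cst3*. In each set 1 cell carried a barcode that another set also held.

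In TGFβR-KO tissue-resident TFH cells 16 genes were called higher (0.614% of those tested) and 114 lower (4.38%), 130 together (4.99%). Against the larger set alone 29 genes (1.11%) were past the limit as higher and 187 (7.18%) as lower, and against the smaller set alone 166 (6.37%) and 522 (20.0%). The genes called higher were led by *Ly6a*, *Cxcr6* and *Klf2*. The genes called lower were led by *Lag3*, *Pard6g*, *Ikzf3*, *Nt5e*, *Adam19* and *H2-Q2*, each at least 3.46 times lower than in either set, and also held the TFH genes *Icos*, *Tox2* and *Tbc1d4*. At a ratio of 2, 6 genes were higher and 35 lower. Because ribosomal protein genes took a larger share in TGFβR-KO, ratios were also centred on their median over the tested genes. This gave 39 higher (1.5%) and 64 lower (2.46%), and moved the percent of calls that were higher from 12.3% to 37.9%. All 16 genes called higher and 64 of the 114 called lower passed both ways. Genes named below were called both ways unless stated otherwise. The genes nearest to the limit were *H2-Q6* (1.51 times) inside for higher calls, and *Chd3* (1.501 times, a call lost after centring) inside and *Snx17* (1.4996 times) outside for lower calls.

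**Figure D1:**
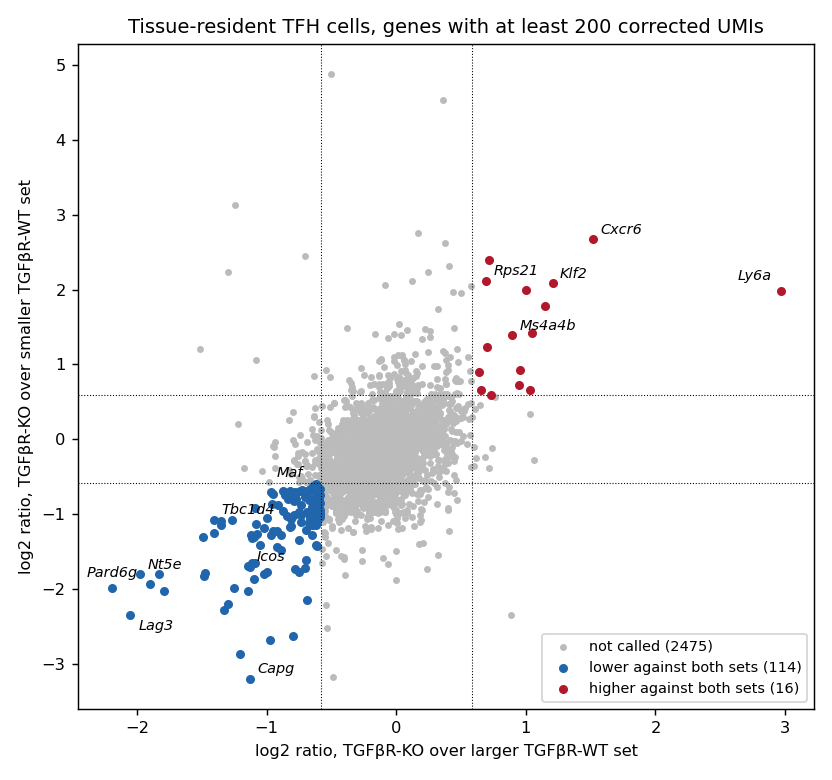
Ratio of the TGFβR-KO level to the larger TGFβR-WT set (x axis, log2) against the ratio to the smaller set (y axis, log2) for 2604 genes in tissue-resident TFH cells, with dotted lines at a ratio of 1.5. *Xist* has no ratio to the larger set and is not drawn, and the 16 genes called higher and 114 called lower lie in the upper right and lower left corners.

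*Ly6a* (chr15:74994877-74998031, GRCm38) encodes the surface protein Sca-1, which interferon is known to induce. Its level was 4.81 in TGFβR-KO, 0.615 in the larger set and 1.22 in the smaller set, 7.83 and 3.96 times lower in the TGFβR-WT sets. At least 1 corrected UMI was found in 53.9% of TGFβR-KO cells (49.6% to 58.3%), in 11.9% of the larger set (8.62% to 15.9%) and in 12.8% of the smaller set (7.63% to 19.7%). The intervals of the TGFβR-WT sets lay below that of TGFβR-KO, but they cover counting error alone, not differences between pools. Cells with 3 or more corrected UMIs made up 26.98%, 2.75% and 8.27%. For comparison, *Jchain*, a plasma cell gene that T cells lack, was found in 2.31%, 2.75% and 1.504% of the cells. *Ly6a* has close relatives in the genome, among which reads could be split.

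*Cxcr6* (chr9:123806475-123811760), the receptor for the chemokine CXCL16, was at 1.43 in TGFβR-KO, 0.499 in the larger set and 0.224 in the smaller set, and 27.4%, 11.01% and 6.77% of the cells held it. *Klf2* (chr8:72319033-72321656) was at 1.75, 0.757 and 0.411 and was held by 23.7% of TGFβR-KO cells (20.1% to 27.6%), 14.1% of the larger set (10.5% to 18.3%) and 8.27% of the smaller set (4.20% to 14.3%). At these levels a cell that expresses either gene can hold no corrected UMI of it, so the shares are not those of expressing cells. *S1pr1*, which KLF2 is known to induce, was at 0.773, 0.846 and 0.374. Its level in TGFβR-KO therefore lay between the TGFβR-WT sets. *S100a6*, which encodes a calcium-binding protein, was at 1.95, 0.944 and 0.729, and TGFβR-CA at 1.85 was close to TGFβR-KO. For *Ly6a*, *Cxcr6* and *Klf2*, TGFβR-CA, at 0.275, 0.169 and 0.407, lay below both TGFβR-WT sets, for *Klf2* by very little.

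The most abundant of the higher genes outside the ribosome was *Ms4a4b*, which encodes a membrane protein of T cells. It was at 11.4 in TGFβR-KO, 6.14 in the larger set and 4.34 in the smaller set, and 89.6%, 63.3% and 58.6% of the cells held it. The median cell held 4 corrected UMIs of it in TGFβR-KO and 1 in the larger set. *Trat1*, an adaptor bound to the T cell receptor, was at 1.48, 0.668 and 0.430. *Cst7*, the cysteine protease inhibitor cystatin F, was at 1.07, 0.552 and 0.561. *Adgre5* (CD97) was at 0.892, 0.463 and 0.542, and *Selplg*, the selectin ligand PSGL-1, was at 1.25, 0.802 and 0.673. *Tpst2*, a tyrosine sulfotransferase, was at 0.913, 0.579 and 0.580. These surface and secretory genes had modest ratios, between 1.56 and 1.93 to the larger set for the latter 4. The remaining calls were the mitochondrial co-chaperone *Dnajc15* (0.965, 0.481 and 0.243), the oligosaccharyltransferase subunit *Stt3b* (1.14, 0.704 and 0.486), the actin-binding *Tagln2* (2.67, 1.30 and 1.68), the nonclassical class I gene *H2-Q6* (2.17, 1.31 and 1.44) and the ribosomal genes *Rps21* and *Rpl9-ps6*.

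**Figure D2:**
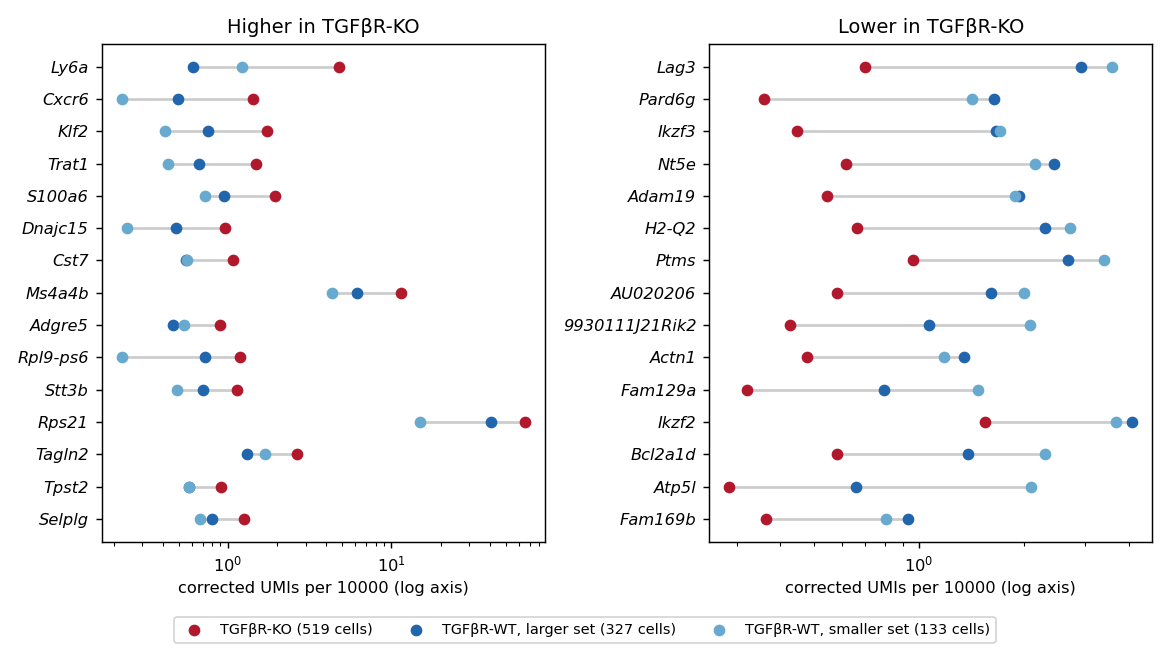
Level in corrected UMIs per 10000 (x axis, log scale) of the 15 genes with the largest ratio to the nearer TGFβR-WT set in each direction, each point 1 set of tissue-resident TFH cells. *Ly6a* at 4.81 in TGFβR-KO stands apart from 0.615 and 1.22 in TGFβR-WT, and *Lag3* at 0.700 from 2.91 and 3.57.

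*Lag3* (chr6:124904361-124911705), an inhibitory receptor that binds MHC class II, showed the lowest ratio to the nearer set of all tested genes. It was at 0.700 in TGFβR-KO, 2.91 in the larger set and 3.57 in the smaller set, 4.16 and 5.10 times lower in TGFβR-KO. It was held by 14.1% of TGFβR-KO cells (11.2% to 17.4%), 42.8% of the larger set (37.4% to 48.4%) and 56.4% of the smaller set (47.5% to 65.0%). *Nt5e* (chr9:88327197-88372092), which encodes the ectoenzyme CD73 that turns AMP into adenosine, was at 0.617, 2.43 and 2.15, and 19.1%, 48.0% and 54.1% of the cells held it. TGFβR-CA was at 2.67 for *Lag3* and 2.43 for *Nt5e*, near the TGFβR-WT sets. Of 14 genes of inhibitory receptors and their ligands in the table, 7 were tested, and *Lag3* and *Nt5e* were the only calls. Both were lower, as were 4.38% of all tested genes. *Ctla4* was at 0.882, 1.23 and 1.10, below the limit against either set. *Pdcd1*, which encodes PD-1, was at 0.809, 1.09 and 1.87, past the limit against the smaller set only.

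Of 30 TFH genes, 17 were tested, and 3 were called lower and none higher, against 4.38% and 0.614% of all tested genes. Their median log2 ratio was -0.43 to the larger set and -0.28 to the smaller set, against -0.13 and -0.20 over all tested genes. *Icos* (chr1:60977927-61000320), the costimulatory receptor, was at 1.98 in TGFβR-KO, 4.33 in the larger set and 6.43 in the smaller set, and 38.3% (34.1% to 42.7%), 54.7% (49.2% to 60.2%) and 79.7% (71.9% to 86.2%) of the cells held it. *Tbc1d4*, which encodes a regulator of membrane traffic that acts on Rab proteins, was at 2.50, 6.62 and 5.27. *Tox2*, the transcription factor, was at 1.26, 2.68 and 2.39. For these 3 genes TGFβR-CA was at 5.15, 6.37 and 2.38, in the range of TGFβR-WT or just under it. *Maf* was at 11.4, 22.4 and 16.9, a ratio of 1.97 to the larger set and 1.49 to the smaller set, so it just missed the call. With a minimum of 100 corrected UMIs, *Il21* (0.254, 0.944 and 0.580), *Il6ra* (0.301, 0.882 and 0.561) and *Sostdc1* (0.259, 0.615 and 1.08) were also called lower, 6 of 21. At that minimum 274 of 4557 genes (6.01%) were called lower and 31 (0.68%) higher. A gene low in TGFβR-KO reaches the minimum mainly on its TGFβR-WT corrected UMIs, so the 6 of 21 is a description only.

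Other members of the TFH list did not pass. *Cxcr5* was at 0.617, 0.909 and 1.25, past the limit against the smaller set only. *Bcl6*, the factor that directs TFH fate, was at 0.560, 0.739 and 0.561, and TGFβR-KO did not differ from the smaller set. *Cd40lg*, the ligand for B cell help, was at 3.16, 2.79 and 3.25, between the ends of the TGFβR-WT sets. *Batf* was at 1.37, 1.43 and 1.66, and *Slamf6* at 2.44, 3.28 and 2.94. *Gpr183* was at 7.05, 8.52 and 4.52, between the sets. Of 20 genes tied to stem-like T cells 14 were tested and none was called. *Tcf7*, which encodes TCF1, was at 1.62, 2.61 and 2.24, and *Lef1* at 1.71, 2.20 and 1.85.

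Genes of the TGFβ response had few corrected UMIs, and those that could be compared mostly stood lower in TGFβR-KO. Of 17 genes of the TGFβ response in the table only 3 reached 200 corrected UMIs, and 2 of them, *Ski* and *Pard6g*, were called lower. *Id2*, the third, was at 5.63, 5.57 and 3.85 and was not lower. *Pard6g*, a member of the PAR6 family of polarity proteins that bind the TGFβ receptor, was at 0.358, 1.64 and 1.42, and 8.48%, 35.2% and 36.1% of the cells held it. *Ski*, a corepressor of SMADs, was at 0.850, 1.35 and 1.496, and its call was lost after centring. At a minimum of 100 corrected UMIs 8 of the 17 genes were tested and 7 were called lower. The genes added there reached that minimum mainly on their TGFβR-WT corrected UMIs, so the count is a description only. Over all tested genes the share called lower was 4.38% at the minimum of 200 and 6.01% at that of 100.

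**Figure D3:**
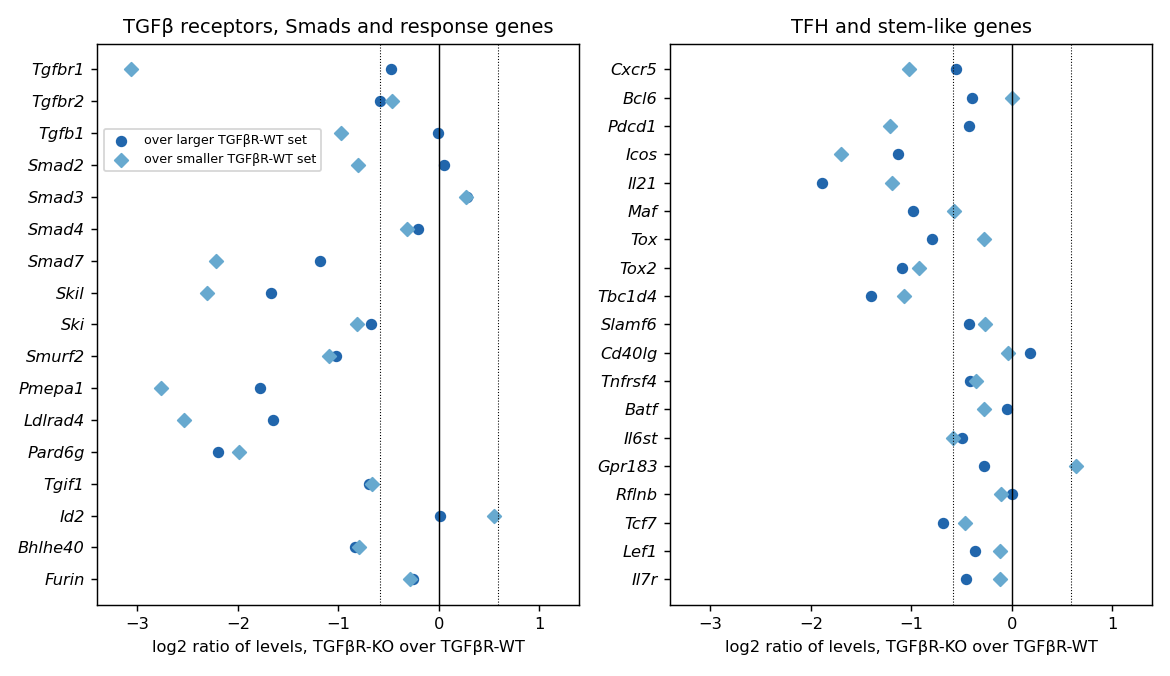
Log2 ratio of the TGFβR-KO level to the larger (circles) and the smaller TGFβR-WT set (diamonds) in tissue-resident TFH cells for genes of the TGFβ pathway (left) and of the TFH and stem-like states (right), with dotted lines at a ratio of 1.5. *Skil*, *Pmepa1* and *Ldlrad4* lie left of the line at a ratio of 1.5 against both sets, and *Cd40lg* and *Rflnb* lie near 0.

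The 5 genes added by that lower minimum are the inhibitors. *Skil* (chr3:31095058-31122577), the corepressor SnoN, was at 0.207 in TGFβR-KO, 0.659 in the larger set and 1.03 in the smaller set, from 40, 74 and 55 corrected UMIs. *Pmepa1* (chr2:173224458-173276533), which binds SMAD2 and SMAD3, was at 0.145, 0.499 and 0.991, from 28, 56 and 53. *Ldlrad4*, of the same family, was at 0.213, 0.668 and 1.23. *Smad7*, the inhibitory SMAD, was at 0.176, 0.401 and 0.823, and 3.28%, 10.7% and 21.1% of the cells held it, so the TGFβR-KO share was close to that of *Jchain*. *Smurf2*, a ubiquitin ligase that acts on the receptor with SMAD7, was at 0.306, 0.624 and 0.654. In TGFβR-CA, from the other batch, these 5 genes were at 0.746, 0.448, 0.865, 0.513 and 0.8603, in each case above TGFβR-KO. Set beside TGFβR-WT, *Pmepa1* in TGFβR-CA was below both sets and *Smurf2* above both. *Skil*, *Ldlrad4* and *Smad7* lay between the sets. *Tgif1*, *Smurf1* and *Bhlhe40* had between 54 and 81 corrected UMIs and ratios between 1.59 and 1.80, all lower in TGFβR-KO.

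The receptors and SMADs themselves were not called. *Tgfbr2* (chr9:116084293-116175360) was at 1.22 in TGFβR-KO, 1.83 in the larger set and 1.68 in the smaller set, and 33.5%, 42.2% and 48.1% of the cells held it. Reads of a 3′ assay fall near the end of a transcript, and a floxed exon removed elsewhere need not lower them, so this level checks little. *Tgfbr1* was at 0.244, 0.339 and 2.04, and the TGFβR-WT sets differed more from each other than TGFβR-KO from the larger set. *Tgfbr3*, the coreceptor betaglycan, rested on 83 corrected UMIs and was at 0.0726, 0.437 and 0.374. *Smad3* was at 0.249, 0.205 and 0.206, and *Smad4* at 0.825, 0.953 and 1.03. Of 20 pathway genes 4 were tested, with no call. *Itgae*, the integrin subunit CD103 that TGFβ is known to induce in resident T cells, had 11 corrected UMIs in all.

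SMAD3 and SMAD4 are known to bind a short motif, CAGAC or on the other strand GTCTG, so the promoter windows of genes that stood lower or higher are shown. The windows run from 250 bases before to 50 after a start site in RefSeq on GRCm38.p6, read 5′ to 3′ on the strand of the gene, with the motif in capitals. *Cxcr6*, called higher (chr9:123806227-123806526, plus strand), and *Nt5e*, called lower (chr9:88327359-88327658, plus strand), hold 2 matches each. *Smurf2*, lower at the minimum of 100 (chr11:106920666-106920965, minus strand), also holds 2. *Ski* (chr4:155222486-155222785, minus strand) holds none.
Cxcr6: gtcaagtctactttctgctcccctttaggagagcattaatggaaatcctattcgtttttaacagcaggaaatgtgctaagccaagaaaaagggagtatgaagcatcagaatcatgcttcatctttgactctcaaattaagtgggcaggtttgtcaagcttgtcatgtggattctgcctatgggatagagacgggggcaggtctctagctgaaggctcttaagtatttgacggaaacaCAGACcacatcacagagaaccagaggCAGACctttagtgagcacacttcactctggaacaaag
Nt5e: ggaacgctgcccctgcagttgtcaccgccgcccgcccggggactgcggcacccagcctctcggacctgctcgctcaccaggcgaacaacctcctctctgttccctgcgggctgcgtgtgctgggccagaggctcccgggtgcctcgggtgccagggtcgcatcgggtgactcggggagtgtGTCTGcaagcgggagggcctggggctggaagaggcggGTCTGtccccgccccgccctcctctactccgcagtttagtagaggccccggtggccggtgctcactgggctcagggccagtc
Smurf2: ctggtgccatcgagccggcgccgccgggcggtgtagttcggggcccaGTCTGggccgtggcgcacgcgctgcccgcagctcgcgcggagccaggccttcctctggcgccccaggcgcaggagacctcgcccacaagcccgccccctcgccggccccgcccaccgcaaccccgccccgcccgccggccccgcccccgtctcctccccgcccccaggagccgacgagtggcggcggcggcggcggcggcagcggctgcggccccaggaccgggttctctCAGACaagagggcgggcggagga
Ski: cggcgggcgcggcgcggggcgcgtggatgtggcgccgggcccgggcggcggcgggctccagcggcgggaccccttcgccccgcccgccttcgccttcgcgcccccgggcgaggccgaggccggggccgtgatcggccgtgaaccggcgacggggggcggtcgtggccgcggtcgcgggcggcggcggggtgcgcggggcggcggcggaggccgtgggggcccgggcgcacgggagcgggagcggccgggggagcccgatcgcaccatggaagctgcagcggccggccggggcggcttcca

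The motif was common everywhere. It was present in 49.6% of all 32851 windows of this length, in 9 of the 15 windows found for 12 of the 16 genes called higher and in 59 of the 120 windows found for 85 of the 114 genes called lower. *Lag3*, *Pard6g*, *Ikzf3*, *Ly6a*, *Skil* and *Pmepa1* have no window in the table. A match is a description of the letters and not a binding site.

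Transcription factors of the Ikaros family stood among the genes called lower. *Ikzf3*, which encodes Aiolos, was at 0.446 in TGFβR-KO, 1.67 in the larger set and 1.70 in the smaller set, and 14.5%, 37.3% and 45.1% of the cells held it. *Ikzf2*, which encodes Helios, was at 1.54, 4.09 and 3.66, and 28.9% (25.04% to 33.0%), 59.3% (53.8% to 64.7%) and 54.9% (46.0% to 63.5%) of the cells held it. The TGFβR-WT sets were close to each other for both genes, and TGFβR-CA was at 1.42 and 3.46. *Foxp3*, the factor of regulatory T cells in which Helios is best known, had 25 corrected UMIs in all, with levels of 0.0985, 0.0535 and 0. Of 13 regulatory T cell genes only *Ikzf2* and *Capg* were tested, and both were called lower, against 4.38% of all tested genes. *Capg*, an actin-capping protein, was at 0.228, 0.499 and 2.09, so the TGFβR-WT sets stood far apart.

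**Figure D4:**
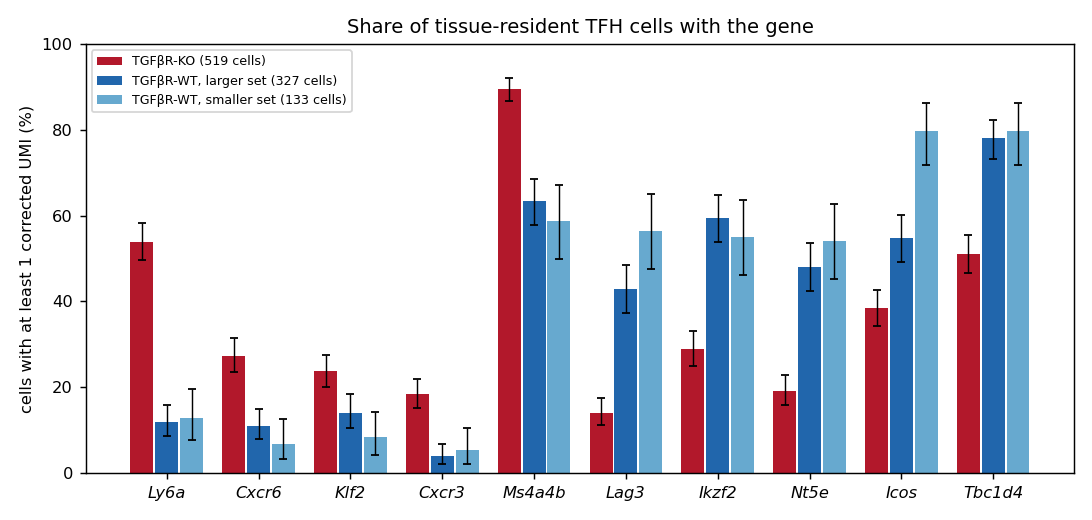
Percent of tissue-resident TFH cells with at least 1 corrected UMI of a gene (y axis) in TGFβR-KO and in each TGFβR-WT set, with exact 95% intervals that cover counting error only. *Ly6a* was held by 53.9% of TGFβR-KO cells and *Lag3* by 14.1%, against 11.9% and 42.8% of the larger TGFβR-WT set.

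Other genes called lower had varied roles. The BCL2-related *Bcl2a1d* was at 0.581, 1.38 and 2.30 and *Bcl2a1b* at 1.01, 2.05 and 3.52, and as near-identical copies they cannot be told apart with certainty. *Nfkb1*, the precursor of p50, was at 1.10, 1.94 and 2.47, and *Malt1*, which links the T cell receptor to NF-κB, was at 0.835, 2.14 and 1.78. *Rgs10*, a regulator of G protein signaling, was at 4.83, 10.0 and 12.9, and 71.3%, 90.5% and 97.0% of the cells held it. *Rgs1*, of the same family, was at 0.519, 0.909 and 1.08. The chemokine receptor *Cxcr4* was at 0.410, 0.820 and 1.402. The metalloprotease *Adam19* was at 0.545, 1.93 and 1.89, the metalloprotease inhibitor *Timp2* at 1.87, 3.99 and 6.82, and *Actn1*, which encodes α-actinin, at 0.477, 1.35 and 1.18. For *Adam19* and *Actn1* the TGFβR-WT sets were close together, while for *Timp2*, *Rgs10* and *Cxcr4* the smaller set was the higher one. *Ccnd3* (cyclin D3) was at 0.436, 0.882 and 0.991. *Cdk6*, its partner kinase, was at 0.633, 0.962 and 1.25, and *Cd6*, a receptor that tunes T cell receptor signals, was at 3.003, 4.52 and 6.17, but both calls were lost after centring. *H2-Q2*, a nonclassical class I gene whose relatives could share its reads, was at 0.664, 2.30 and 2.71, opposite in direction to *H2-Q6*. *Ptms*, which encodes parathymosin, was at 0.959, 2.68 and 3.40.

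Effector genes of other helper lineages were scarce in these cells. *Cxcr3*, the chemokine receptor of TH1 cells, was at 0.768 in TGFβR-KO, 0.151 in the larger set and 0.131 in the smaller set, from 148, 17 and 7 corrected UMIs, and 18.3% (15.1% to 21.9%), 3.98% (2.13% to 6.70%) and 5.26% (2.14% to 10.5%) of the cells held it. *Ccl5* rested on 119, 16 and 1 corrected UMIs, with levels of 0.617, 0.143 and 0.0187. Both were called higher only at the minimum of 100. They reached it mainly on their TGFβR-KO corrected UMIs, and the ratio of *Ccl5* to the smaller set rests on 1 corrected UMI. *Ifng* had 12 corrected UMIs in all and *Tbx21*, which encodes T-BET, had 11. *Gzmb* had 6. *Runx3* was at 0.965, 0.472 and 0.767, past the limit against the larger set only, and *Stat4* at 1.20, 1.12 and 0.748, past it against the smaller set only. The list of TH1 genes had 27 in the table and 6 tested, with no call. *Il17a*, whose past expression marks all these cells, had 21 corrected UMIs, with levels of 0.0519, 0.0713 and 0.0561. *Rora* was at 1.92, 1.63 and 1.33. Of 25 TH17 genes 11 were tested, and *Cxcr6* was the only one called higher and *Ikzf3* the only one called lower. Of all tested genes 0.614% were called higher and 4.38% lower.

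Of 40 interferon-inducible genes 19 were tested, and *Ly6a* was the only call, as higher, against 0.614% of all tested genes. The median log2 ratio of the 19 was 0.22 to the larger set and 0.25 to the smaller set, where that of all tested genes was -0.13 and -0.20. *Gbp7*, a guanylate-binding protein, was at 0.965, 0.570 and 0.654, and *Psmb10*, an immunoproteasome subunit, was at 1.38, 0.909 and 1.05. Both were called higher after centring only. *Bst2* (tetherin) was at 0.679, 0.383 and 0.355 and was called higher at the minimum of 100. *Isg15* was at 0.721, 0.829 and 1.496, in the other direction. Single genes of the list thus stood on both sides.

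Genes of homing and residency were called in both directions, where of all tested genes 0.614% were called higher and 4.38% lower. Of 18 tested homing genes *Klf2* and *S100a6* were called higher and *Cxcr4* lower. *Itga4*, *Itgb7* and *Lsp1* were at 3.45, 2.82 and 4.61 in TGFβR-KO, at 4.18, 2.17 and 4.52 in the larger set and at 3.63, 3.55 and 4.77 in the smaller set. Of 10 tested residency genes *Cxcr6* and *Ly6a* were called higher and *Rgs1* and *Smco4* lower, and *Smco4* was at 2.95, 4.95 and 5.78. *Cd69*, an early activation gene kept on by resident T cells, was at 0.358, 0.303 and 0.411, with TGFβR-KO between the TGFβR-WT sets.

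Calls in the remaining lists were few in number, and their shares are to be read against the 4.99% of all tested genes called in either direction. Of 86 tested ribosomal protein genes 63 were above both TGFβR-WT sets, 2 were called higher and 1 lower. *Rps21* was at 65.3, 40.4 and 15.03 and *Rps3a1* at 12.5, 21.1 and 43.0, and both parted the TGFβR-WT sets as well. After centring 11 ribosomal protein genes were called higher. Of 34 tested genes of oxidative phosphorylation only *Atp5l* was called (0.285, 0.659 and 2.09), lower. In TGFβR-CA, from the other batch, *Rps21* was at 18.5, near the smaller set, and *Atp5l* at 1.18, between the sets. Of 27 tested actin genes *Tagln2* was higher and *Capg* and *Arpc3* lower, the call of *Arpc3* being lost after centring. Of 28 tested T cell receptor signaling genes *Cd6* was lower, and of 16 tested immediate early genes *Rgcc* was lower, calls that were both lost after centring. There was no call among 10 glycolysis genes, 14 heat shock genes, 15 genes of cytokine feedback and 5 of lipid metabolism. Of 9 tested cell cycle genes *Ccnd3* and *Cdk6* were lower, of 10 tested apoptosis genes both *Bcl2a1* copies, and of 7 tested NF-κB feedback genes *Nfkb1*. *Cst7* was the call among 3 tested cytotoxic genes, and *H2-Q6* and *H2-Q2* those among 13 class I genes. In these last 5 lists the share called was above that of all tested genes, from 13 tested genes or fewer each, as it was for the actin and immediate early genes.

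The called genes were also read cell by cell, as a description, since they were chosen on the same values. The 114 genes called lower made up a median of 1.25% of the corrected UMIs of a TGFβR-KO cell (5th to 95th percentile 0.713% to 1.89%), 2.30% of a cell of the larger set (1.53% to 3.20%) and 3.24% of a cell of the smaller set (2.45% to 3.98%). The smaller set did not overlap TGFβR-KO between these percentiles, and the larger set did. All 16 genes called higher made up a median of 1.01% (0.612% to 1.39%), 0.549% (0.292% to 0.909%) and 0.262% (0.127% to 0.496%). Here too only the larger set overlapped TGFβR-KO. The 14 of them outside the ribosome made up a median of 0.314% (0.0961% to 0.649%), 0.129% (0% to 0.361%) and 0.109% (0.0215% to 0.287%), with ranges that overlapped.

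The same genes were then read in the other clusters of these mice, where the cells are others but the pools the same. In germinal center TFH cells *Ly6a* was at 5.71 in TGFβR-KO, 1.05 in the larger set and 0.621 in the smaller set, in activated cells at 10.3, 2.52 and 1.14, and in migratory cells at 9.47, 2.51 and 0.444. *Lag3* was at 2.005, 3.48 and 8.82 in germinal center TFH cells, at 2.84, 10.9 and 15.3 in activated cells and at 0.259, 0.998 and 1.33 in migratory cells. The direction in these clusters was that of tissue-resident TFH cells for both genes. *Cxcr6* was at 2.74, 0.752 and 0.704 in germinal center TFH cells. It was at 13.1, 11.3 and 7.32 in activated cells and at 5.74, 3.88 and 2.22 in migratory cells. In both of these its ratio to the larger set was below 1.5. In pre-tumorigenic cells *Cxcr6* was at 4.86, 6.81 and 7.73, lower in TGFβR-KO than in either set. *Nt5e* was at 0.820, 2.59 and 2.40 in germinal center TFH cells and *Icos* at 3.91, 7.88 and 8.15. *Ikzf2* was at 3.38, 6.75 and 3.52 there, so that TGFβR-KO lay beside the smaller set, and at 1.94, 1.68 and 2.44 in activated cells, between the sets. *Klf2* was at 10.5, 9.42 and 7.84 in migratory cells, ratios below 1.5, and at 0.503, 0.218 and 0.166 in germinal center TFH cells. Whether any of these genes differed more in 1 cluster than in another was not tested. The migratory cells of the smaller set numbered 16.

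**Figure D5:**
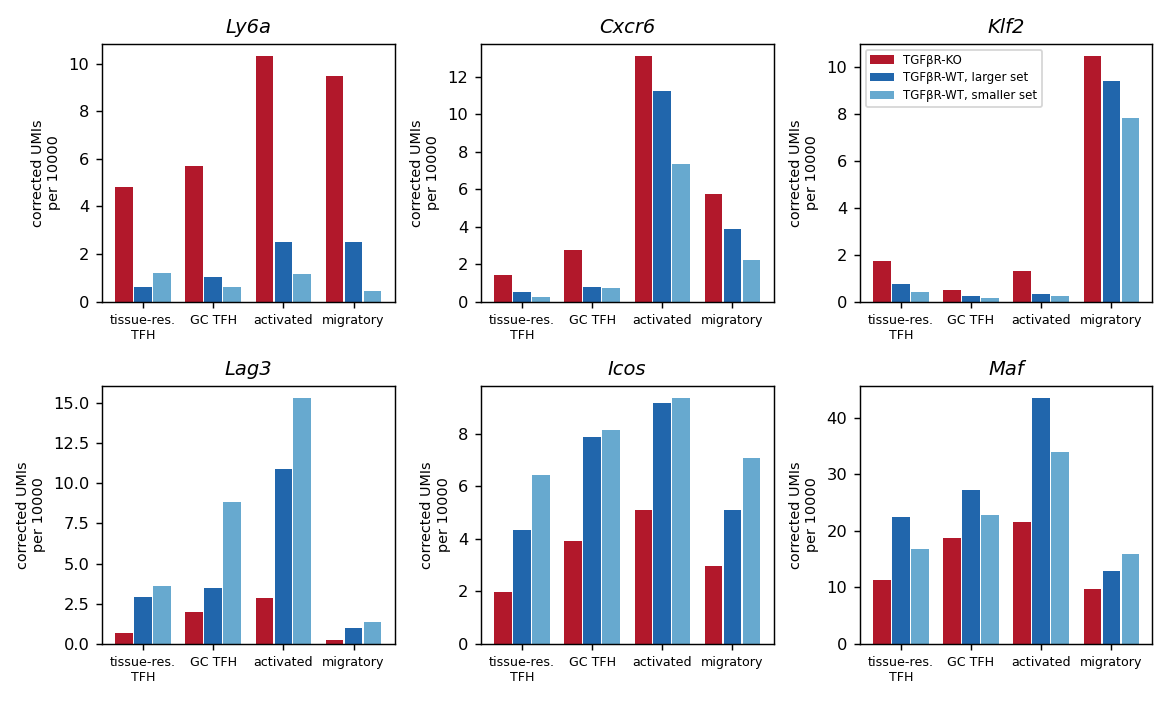
Level in corrected UMIs per 10000 (y axis, a scale of its own for each gene) of 6 genes in 4 clusters of TGFβR-KO and of both TGFβR-WT sets. *Ly6a* in TGFβR-KO was above both sets in each cluster shown, from 4.81 in tissue-resident TFH cells to 10.3 in activated cells, while *Klf2* differed little in migratory cells (10.5 against 9.42 and 7.84).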

How the data were processed

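Per the labels and methods, the authors counted UMIs with Cell Ranger 3.1.0 against mm10, kept cells with 1000 to 5000 genes and under 10% mitochondrial UMIs, normalized with SCTransform and integrated and clustered in Seurat. Each deposited value is a natural log, taken by the authors after adding 1 to a corrected UMI. The correction evens out cell depth, so the values are not raw counts and no count model or thinning was used. Logs were undone and corrected UMIs summed per set. A set at 0 was given a floor of 3 corrected UMIs, and no ratio was taken where both sides were at or under 3. Doublets were not removed beyond the authors' limits. Cell types are the authors' deposited names.

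The cells, gene lists and calling rule were chosen with earlier results of these data known. Named genes are the 15 with the largest ratio to the nearer TGFβR-WT set in each direction, and list genes that were called or define a list. *Timp2*, *Malt1*, *Rgs10*, *Xist*, *Jchain* as a background, the promoters printed and the clusters compared were chosen after their values were seen. Not every gene of the lists is reported here. Calling was tested on simulated data with the same mean for both TGFβR-WT sets, so the real differences between them were not covered. Coordinates come from GENCODE vM21 on GRCm38, matched by symbol. Python 3.11.15, numpy 2.4.6, scipy 1.17.1, pandas 2.3.3 and matplotlib 3.10.9 were used. The alternatives are described with their effect in the closing section.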

Additional observations from a re-analysis of the deposited data

How the results depend on the processing

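All 130 called genes were recomputed under 15 alternatives, 13 of them planned. Of 1950 gene and alternative pairs none changed direction, and 1668 moved by less than 1 SD of the gene's ratios to the 2 TGFβR-WT sets. The alternatives with another minimum or a ratio of 2 leave a gene's ratio unchanged. Leaving out 1 TGFβR-WT set cannot reverse a gene called against both. For such pairs the lack of a reversal was fixed in advance and says nothing about stability. Pairs with an unchanged ratio were likewise bound to be among the 1668. The SD also rests on 2 ratios and is wide for genes in which the TGFβR-WT sets disagree. Under all 15, *Ly6a* and *Klf2* stayed called higher and 14 genes stayed called lower, among them *Lag3*, *Nt5e*, *Ikzf2*, *Tbc1d4*, *Adam19* and *H2-Q2*. Of the 15, a minimum of 100, no minimum and leaving out either TGFβR-WT set only relax the rule and could not end these calls, so they say nothing about stability.

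The numbers of calls depended on the limits. Against 16 higher, 114 lower and 485 genes apart between the TGFβR-WT sets, a minimum of 100 corrected UMIs gave 31, 274 and 1035, a minimum of 400 gave 7, 46 and 217, and no minimum beyond 1 corrected UMI in each set gave 220, 910 and 3187. A ratio of 2 gave 6, 35 and 120. Shares of cells in place of levels gave 8 higher and 52 lower. Leaving out 1 TGFβR-WT set gave 29 to 166 higher and 187 to 522 lower, the first of each without the smaller set and the second without the larger set. Leaving ribosomal and mitochondrial genes out of the denominator gave 39 higher and 64 lower, as did centring on the median. Cells with 1200 to 1700 detected genes gave 8, 54 and 303, with 1292 genes left to test. Centring and this last choice were made after seeing the data. Adding 0.1 per 10000, averaging over cells, capping at the 99th percentile and leaving out cells over 5% mitochondrial or with a shared barcode kept every number within 1.5 times.

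No paired analysis was possible because the cells of TGFβR-WT carry no sample and TGFβR-KO is 1 pool. Mice within a pool, batch and genotype cannot be told apart. *Xist* also parts the smaller set from TGFβR-KO and the larger set. Differences from the smaller set thus cannot be told apart from a difference in the sex of the mice. The minimum is counted over all 979 cells, and a gene low in TGFβR-KO passes it mainly on its TGFβR-WT level. A gene high in TGFβR-KO likewise passes it mainly on its TGFβR-KO level.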
